A study of Mus musculus with 6 samples.

Results

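Retinoids are the vitamin A derivatives that control growth and differentiation of skin. Cells take up retinol through the receptor STRA6, oxidise it to retinal and then to retinoic acid, hold the acid on cellular binding proteins (CRABP1 and CRABP2) and destroy it with CYP26 enzymes. Retinoic acid acts through the nuclear receptors RARA, RARB and RARG, which pair with RXR partners on DNA elements made of direct repeats. In epidermis the pathway keeps keratinocytes from cornifying, and activity of the retinal dehydrogenases (ALDH1A enzymes) is widely used to mark stem-like tumour cells.

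The members are 9 genes of this pathway: Stra6, Crabp1, Crabp2, Aldh1a1, Aldh1a2, Aldh1a3, Cyp26b1, Rarb and Rarg. Each was found as the feature that the platform annotation gives that 1 symbol, and they are 9 of 30142 genes compared. All 9 have a single such feature, so none was chosen among several. The list was drawn up with the difference between the genotypes in these arrays known. The members were part of the fit over all genes, but their values are therefore given as a description, without p-values.

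Skin squamous cell carcinomas were raised in Sfrp1-/- mice (Sfrp1_KO, 3 samples) and in wild-type mice (WT, 3 samples), and the fraction labelled cancer stem cells was sorted from them. Sfrp1 encodes a secreted antagonist of Wnt ligands. Mice of both genotypes received the mutagen DMBA on 3 days (23, 25 and 27 in the labels' PD notation) and then the tumour promoter TPA 2 times a week for 30 to 40 weeks. The labels leave out strain, sex, age at sorting, the deleted part of Sfrp1 and any pooling of animals. Cells were gated as lineage-negative and positive for Epcam, α6 integrin and CD34, and each sample went onto 1 MTA 1.0 whole-transcript array. Since no label ties a sample to an animal of its own, errors and p-values cover the spread among these 6 samples, which may be technical. The comparison asks how the sorted fraction differs in expression when Sfrp1 is absent.

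Signals are deposited log2 units after RMA. Their highest value is 19.93, beyond a scanner of 16 bits, so a difference of 1 need not be a doubling and no folds are given. The background level of an array is the highest of its 23 antigenomic probe sets, between 5.04 and 5.10 on Sfrp1_KO arrays and between 4.82 and 5.09 on WT arrays. Sfrp1 itself was at 5.09, 5.11 and 5.15 on Sfrp1_KO arrays, close to background, against 5.71, 5.48 and 6.07 on WT arrays (limma adjusted p = 0.0969). Markers of the labelled epithelial cells were high on the WT arrays, and most were far lower on the Sfrp1_KO arrays. Of 9 basal keratinocyte markers 6 fell and none rose (limma, adjusted p under 0.05), where 1.45% of all genes fell and 1.83% rose. At an unadjusted p under 0.05, 8 were lower and 1, Dst, was higher (6.36 in Sfrp1_KO, 5.71 in WT). The share of all genes at that unadjusted threshold was not counted, here or for the lists below. The list averaged 6.0 to 6.16 on Sfrp1_KO arrays against 9.31 to 9.99 on WT arrays. Trp63, the master regulator of stratified epithelium, was under background on all Sfrp1_KO arrays and fell by at least 2.16 (adjusted p = 0.000196) and kept that call in all alternatives. The genes of the gate differed in direction. Epcam averaged 5.03 ± 0.17 in Sfrp1_KO, above background on 1 of 3 arrays, and 7.59 ± 1.03 in WT (SD, n = 3; limma adjusted p = 0.0455). Itga6, which encodes α6 integrin, was above background on all arrays, at 7.62 ± 0.18 in Sfrp1_KO and 9.51 ± 0.64 in WT (adjusted p = 0.0292). Cd34 was at 11.23, 11.55 and 10.19 in Sfrp1_KO against 9.26, 9.54 and 9.46 in WT, higher on every Sfrp1_KO array (difference 1.57, limma adjusted p = 0.0714). Cd34 passed with dim genes left out (0.0441), after quantile normalization once more (0.0314) and without Sfrp1_KO replicate 3 (0.00664). The Epcam call ended without any 1 Sfrp1_KO array or WT replicate 1 (adjusted p 0.103 to 0.184) and the Itga6 call without any 1 Sfrp1_KO array or WT replicate 2 (0.0650 to 0.111). Both ended with arrays centred on the median (0.0645 and 0.0613). In sorted bulk samples, fewer cells of a type and less RNA per cell cannot be told apart.

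Promoter windows were searched for letters of the element that retinoic acid receptors bind. A match does not show binding, and elements outside the windows or with other letters were not searched. RefSeq windows of assembly GRCm38.p6, from 250 bases before to 50 after a transcript start, were at hand for 7 of the 9 members (12 windows). The receptor motif AGGTCA was searched on both strands, together with its variants beginning AGT (the motif AGTTCA), beginning GGT (the motif GGTTCA) and beginning GGG (the motif GGGTCA). Each was sought alone and in direct repeats with 1, 2 or 5 bases between the motifs. At least 1 motif stood in 4 of the 12 member windows, 1 window each of Aldh1a1, Rarb, Rarg and Stra6. The Rarb window held 3 motifs. Of all 32851 windows, 43.7% hold at least 1. Of the members Rarb alone had a direct repeat, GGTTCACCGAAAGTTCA, with 5 bases between its motifs. Repeats with that spacing stand in 0.0974% of all windows. Outside the members, the window of Cyp26a1, a sister gene of Cyp26b1, held one as well, read on the opposite strand as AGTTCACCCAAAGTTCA. The windows of Crabp1, which had the largest difference among the members, and of Aldh1a2 and Cyp26b1 held none of the searched letters.

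The 250 bases before the start of these 3 genes are shown 5′ to 3′ on the gene's strand, because they set the promoters that carry the repeat beside that of the member with the largest difference. Capitals mark motifs and repeats. The Rarb stretch is chr14:16575477-16575726 on the minus strand, the Cyp26a1 stretch chr19:37697558-37697807 on the plus strand and the Crabp1 stretch chr9:54764498-54764747 on the plus strand.
Rarb: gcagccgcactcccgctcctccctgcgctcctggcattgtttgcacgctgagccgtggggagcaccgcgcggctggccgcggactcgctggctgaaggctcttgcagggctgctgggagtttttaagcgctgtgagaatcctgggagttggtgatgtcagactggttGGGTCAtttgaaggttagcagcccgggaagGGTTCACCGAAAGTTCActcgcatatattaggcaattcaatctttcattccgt
Cyp26a1: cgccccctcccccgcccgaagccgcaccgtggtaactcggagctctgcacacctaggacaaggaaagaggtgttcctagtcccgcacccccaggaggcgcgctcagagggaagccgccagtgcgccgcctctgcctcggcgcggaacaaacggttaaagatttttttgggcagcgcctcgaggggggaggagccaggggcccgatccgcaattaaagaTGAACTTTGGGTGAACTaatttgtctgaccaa
Crabp1: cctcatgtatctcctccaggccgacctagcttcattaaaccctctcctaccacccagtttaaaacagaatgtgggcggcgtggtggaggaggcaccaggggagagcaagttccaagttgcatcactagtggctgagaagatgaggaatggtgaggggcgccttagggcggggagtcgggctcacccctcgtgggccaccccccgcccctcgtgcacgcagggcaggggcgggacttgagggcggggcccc

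Across the members the arrays of the genotypes did not overlap for 5 of 9 genes, against 19.9% of all genes. In 3 of them (Crabp1, Aldh1a2 and Rarb) the Sfrp1_KO arrays were higher, against 9.10% of all genes, and in 2 (Crabp2 and Cyp26b1) lower, against 10.8%. Aldh1a2 and Rarb were under background on all 6 arrays, so their order rests on values without a measured level. In the limma fit over all genes 1 of 9, Crabp1, was past the threshold, as were 3.28% of all genes. These counts are descriptions and nothing is read from them, since the members were chosen on the same contrast. The median difference was 0.07 over the 9, and 0.31 over the 4 above background on all arrays, against -0.01 over all genes. Expression above background was found for 4 members on all arrays (Stra6, Crabp1, Crabp2 and Rarg), whereas Aldh1a1, Aldh1a2, Aldh1a3 and Rarb stayed under it on all 6. The plot of member signals by array shows this split.

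**Figure D1:**
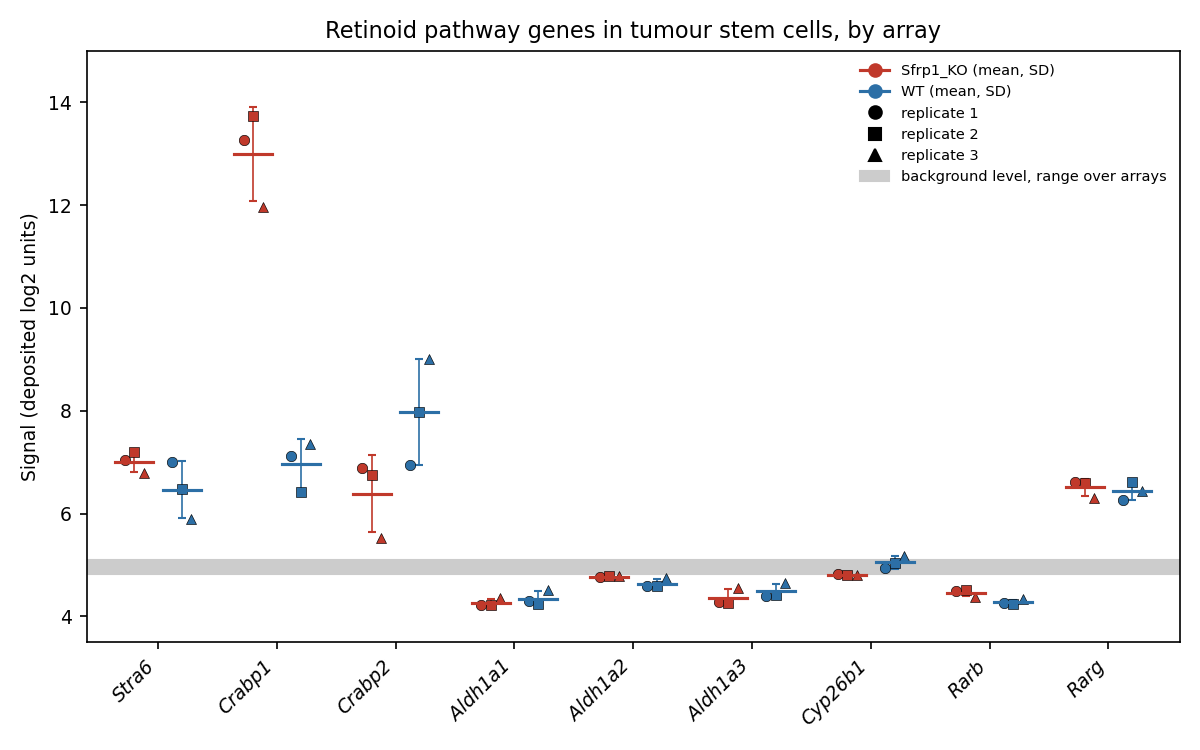
Signal of the 9 members on each array, in deposited log2 units (vertical axis), with Sfrp1_KO left of WT for each gene. Points are arrays with a shape per replicate number, bars are mean and SD (n = 3), and the grey band is the range of the background level. Crabp1 is at 11.97 to 13.73 in Sfrp1_KO and at 6.43 to 7.35 in WT, while the ALDH1A genes and Rarb lie under the band.

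Uptake was represented by Stra6, the membrane receptor that passes retinol from its plasma carrier into the cell. Stra6 was at 7.04, 7.20 and 6.79 on the Sfrp1_KO arrays, against 7.01, 6.48 and 5.90 on the WT arrays. The groups overlapped, because WT replicate 1 lay within the knockout range. The mean was 7.01 ± 0.21 in Sfrp1_KO and 6.46 ± 0.55 in WT (SD, n = 3), a difference of 0.55 (95% CI -0.12 to 1.21). The difference was 0.27 without WT replicate 3 and 0.82 without WT replicate 1.

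The binding proteins stood on opposite sides. Crabp1, which binds retinoic acid in the cytoplasm, had 13.27, 13.73 and 11.97 on the Sfrp1_KO arrays against 7.12, 6.43 and 7.35 on the WT arrays. The lowest knockout array, replicate 3, was still far above the highest WT array. Mean levels were 12.99 ± 0.91 in Sfrp1_KO and 6.97 ± 0.48 in WT (SD, n = 3), and the difference of 6.02 (SE 0.47, 95% CI 4.88 to 7.16) was the third highest of all genes compared. Leaving out any 1 array kept it between 5.65 and 6.53.

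Crabp2, which carries retinoic acid to its receptors in the nucleus, had 6.88, 6.75 and 5.53 on the Sfrp1_KO arrays against 6.95, 7.98 and 9.0 on the WT arrays. All knockout arrays were lower, but Sfrp1_KO replicate 1 and WT replicate 1 were nearly level. The means were 6.39 ± 0.74 in Sfrp1_KO and 7.98 ± 1.03 in WT (SD, n = 3), and the difference was -1.59 (SE 0.58, 95% CI -2.98 to -0.19). Without WT replicate 3 it was -1.08, and without WT replicate 1 it was -2.10. Sfrp1_KO replicate 3 was the lowest knockout array for Crabp1, Crabp2, Stra6 and Rarg alike.

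The 3 retinal dehydrogenases, which make retinoic acid from retinal, gave no signal above background in either genotype. Aldh1a1 was at 4.21 to 4.35 in Sfrp1_KO and 4.24 to 4.50 in WT, and Aldh1a3 at 4.26 to 4.55 in Sfrp1_KO and 4.40 to 4.65 in WT. Aldh1a2 was at 4.76 to 4.79 in Sfrp1_KO and 4.58 to 4.74 in WT, groups that did not overlap although both lay under background. A gene under background on all arrays has only an upper bound here, so no size of a difference is given for these genes, and low expression cannot be told from none.

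Cyp26b1, an enzyme that breaks down retinoic acid, was at 4.82, 4.80 and 4.80 in Sfrp1_KO, under background on each array, against 4.94, 5.03 and 5.17 in WT, where 2 of 3 arrays were above it. The WT mean of 5.05 was no higher than the background level of the Sfrp1_KO arrays, so no bound on the difference could be given.

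Of the receptors, Rarb, which retinoic acid induces through the repeat printed above, was at 4.49, 4.51 and 4.38 in Sfrp1_KO and at 4.26, 4.25 and 4.33 in WT. The knockout arrays were slightly higher, and all 6 lay under background. Rarg, the main retinoic acid receptor of epidermis, was at 6.61, 6.60 and 6.31 in Sfrp1_KO against 6.27, 6.61 and 6.43 in WT. These values overlapped, with means of 6.51 ± 0.17 in Sfrp1_KO and 6.44 ± 0.17 in WT (SD, n = 3) and a difference of 0.07 (95% CI -0.24 to 0.38). It was -0.01 without WT replicate 1.

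Beyond the members, 97 further genes were set in lists by role, of which 87 were measured under 1 symbol. The lists mix pathway genes with genes that retinoic acid is known to induce or repress and with other aldehyde dehydrogenases. Among the 87, 5 rose and 4 fell (limma, adjusted p under 0.05 over all genes), or 10.3% of the list against 3.28% of all genes, 1.83% of which rose and 1.45% fell. That share covers the mixed lists, not the pathway alone, and the calls include Aldh3a2 and Krt13. The median over the 87 was -0.06. All 6 arrays were under background for 34 of the 87 (39.1%), as for 54.5% of all genes. The plot of called genes by array gives all 9, and the number of calls moved with the arrays used, from 2 to 3 higher and from 0 to 5 lower when any 1 array was left out.

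**Figure D2:**
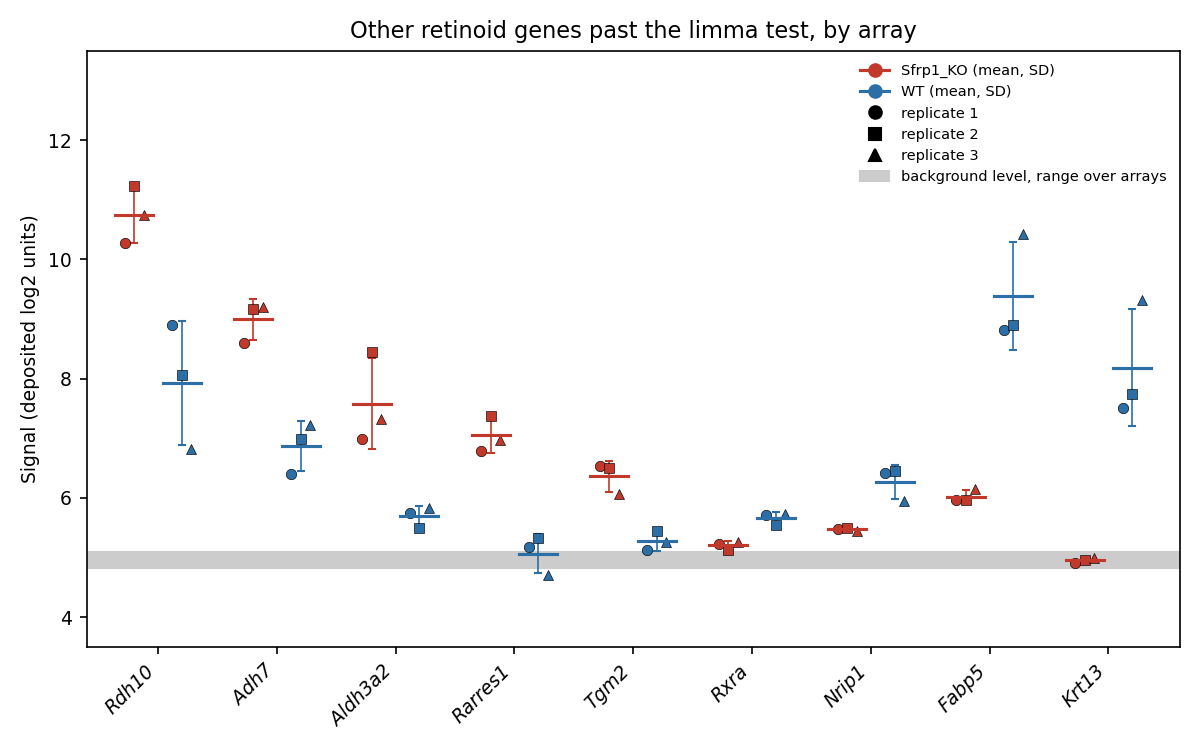
Signal on each array, in deposited log2 units (vertical axis), of the 9 genes of the retinoid lists that passed the limma test, Sfrp1_KO left of WT. The lists also hold other aldehyde dehydrogenases and genes that respond to retinoic acid. Points are arrays, bars are mean and SD (n = 3), and the grey band is the range of the background level. Rdh10, Adh7, Aldh3a2, Rarres1 and Tgm2 are higher on every Sfrp1_KO array, and Rxra, Nrip1, Fabp5 and Krt13 lower on every one.

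None of 11 genes of retinol transport and storage passed the limma test, with 1 lower and 0 higher at an unadjusted p under 0.05 (list median -0.03). Lrat, which esterifies retinol for storage, was under background on all arrays. The intestinal retinol binding protein gene Rbp2 was at 5.98 ± 0.15 in Sfrp1_KO and 6.32 ± 0.22 in WT (SD, n = 3; limma adjusted p = 0.317).

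Of 22 enzymes that interconvert retinol, retinal and their precursors 2 rose, both of them oxidising retinol to retinal. Rdh10, the retinol dehydrogenase required for retinoic acid synthesis in mouse embryos, had 10.27, 11.23 and 10.74 on the Sfrp1_KO arrays against 8.89, 8.07 and 6.83 on the WT arrays. Every knockout array was above every WT array, and the WT arrays were spread over a wider range. The difference was 2.82 (SE 0.53, limma adjusted p = 0.0449). This call ended without any 1 Sfrp1_KO array or without WT replicate 2 or 3 (adjusted p 0.0533 to 0.182), and with arrays centred on the median (0.0766).

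Adh7, a class IV alcohol dehydrogenase of epithelia that also accepts retinol, had 8.60, 9.17 and 9.20 in Sfrp1_KO against 6.41, 6.99 and 7.23 in WT. It rose by 2.12 (SE 0.26, limma adjusted p = 0.0114) with well separated arrays, and the call ended only without Sfrp1_KO replicate 2 (adjusted p = 0.0672). Dhrs3, which reduces retinal back to retinol and is itself induced by retinoic acid, was at 7.46 ± 0.44 in Sfrp1_KO and 7.57 ± 0.51 in WT (SD, n = 3; limma adjusted p = 0.957). The reductase gene Dhrs4 was at 5.81 ± 0.15 in Sfrp1_KO and 6.40 ± 0.42 in WT (adjusted p = 0.270), and Rdh11 at 5.20 ± 0.06 in Sfrp1_KO and 5.41 ± 0.11 in WT (adjusted p = 0.345).

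Among 5 genes of breakdown and delivery 1 fell. Fabp5, an epidermal fatty acid binding protein that can hand retinoic acid to the receptor PPARδ, had 5.96, 5.97 and 6.14 on the Sfrp1_KO arrays against 8.82, 8.90 and 10.42 on the WT arrays. It fell by 3.36 on the log2 scale (SE 0.42, limma adjusted p = 0.0130), with no overlap. Without Sfrp1_KO replicate 1 or 2 it was not called (adjusted p = 0.0591 and 0.0729). Cyp26a1 and Cyp26c1 were under background on all arrays, Cyp26a1 at 4.06 to 4.19 in Sfrp1_KO and 4.01 to 4.23 in WT. Cyp2s1, a P450 of epithelia that oxidises retinoic acid, was under background in Sfrp1_KO (4.96 ± 0.07) and at 5.49 ± 0.28 in WT (SD, n = 3; limma adjusted p = 0.156). The retinal oxidase gene Aox1 was at 5.81 ± 0.17 in Sfrp1_KO and 5.40 ± 0.56 in WT (adjusted p = 0.623).

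Of 12 receptors and coregulators none rose and 2 fell. Rxra, the main RXR of skin, had 5.22, 5.12 and 5.27 in Sfrp1_KO against 5.71, 5.55 and 5.73 in WT. The arrays separated and the knockout values lay just above background, for a fall of 0.46 on the log2 scale (SE 0.09, limma adjusted p = 0.0496). Its call ended without any 1 of the 6 arrays (adjusted p 0.0635 to 0.197), with arrays centred on the median (0.0773) and with the trend and robust options (0.0581). Nrip1, a ligand-dependent corepressor that retinoic acid induces, had 5.48, 5.49 and 5.45 in Sfrp1_KO against 6.41, 6.45 and 5.94 in WT. It fell by 0.80 on the log2 scale (SE 0.15, limma adjusted p = 0.0425), and was not called without any 1 Sfrp1_KO array or without WT replicate 1 or 2 (adjusted p 0.106 to 0.161), or with arrays centred on the median (0.0878).

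The other receptors showed smaller differences. Rara was at 5.62 ± 0.08 in Sfrp1_KO and 5.38 ± 0.06 in WT (SD, n = 3; difference 0.23, limma adjusted p = 0.254), and Rxrb at 5.49 ± 0.07 in Sfrp1_KO and 5.58 ± 0.05 in WT (-0.09, adjusted p = 0.763). Rxrg was under background on all arrays. The acetyltransferase coactivator gene Ep300 was at 7.50 ± 0.44 in Sfrp1_KO and 6.47 ± 0.10 in WT. Ep300 missed the threshold (difference 1.03, SE 0.22, limma adjusted p = 0.0657) and passed with dim genes left out (0.0437) or after quantile normalization once more (0.0327).

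Genes known to be induced by retinoic acid went both ways, with 2 of 18 higher and 2 lower. Rarres1, named for its induction by a synthetic retinoid in human skin cells, had 6.79, 7.37 and 6.98 on the Sfrp1_KO arrays against 5.17, 5.32 and 4.70 on the WT arrays. The WT values were around background and the arrays did not overlap, for a rise of 1.98 (SE 0.21, limma adjusted p = 0.00810). Rarres1 kept its call under all 12 alternatives (adjusted p 0.00442 to 0.0340). Tgm2, the tissue transglutaminase, had 6.53, 6.50 and 6.06 in Sfrp1_KO against 5.12, 5.44 and 5.25 in WT. It rose by 1.09 (SE 0.15, limma adjusted p = 0.0190), a call that ended without Sfrp1_KO replicate 1 or 2 and without WT replicate 1 or 3 (adjusted p 0.0522 to 0.0927).

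The genes of this list that fell were Nrip1, as above, and Krt13. Krt13, a keratin of internal stratified epithelia that also appears in papillomas, was under background in Sfrp1_KO (4.91, 4.96 and 4.99) against 7.50, 7.74 and 9.32 in WT. It fell by at least 3.12 on the log2 scale (limma adjusted p = 0.0185), and was not called without any 1 Sfrp1_KO array (adjusted p 0.0617 to 0.0922). Krt19 was under background in Sfrp1_KO (4.51 ± 0.15) and at 5.67 ± 0.96 in WT (SD, n = 3; limma adjusted p = 0.305), and Krt4 was under background on all arrays. Krt13 and Krt19 are also keratinocyte genes, and most basal keratinocyte markers fell on the same arrays. Their part in these differences was not tested.

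None of 7 epidermal genes that retinoic acid is known to repress passed the limma test, with 5 lower and 0 higher at an unadjusted p under 0.05. The list median was -2.12. Tgm1, the cornifying transglutaminase, was at 5.71 ± 0.25 in Sfrp1_KO and 7.84 ± 0.98 in WT (SD, n = 3; difference -2.13, limma adjusted p = 0.0737). It passed with dim genes left out (0.0445), without WT replicate 1 (0.0395) and without WT replicate 3 (0.0460). Krt10, a keratin of differentiating epidermis, was at 5.03 ± 0.12 in Sfrp1_KO and 7.14 ± 1.06 in WT (-2.12, limma adjusted p = 0.0890), and passed without WT replicate 2 (-2.73, adjusted p = 0.00166). The list averaged 4.72 to 4.78 on Sfrp1_KO arrays and 5.88 to 6.64 on WT arrays, the same direction as the basal keratinocyte markers.

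The 16 aldehyde dehydrogenases outside the retinal dehydrogenases included 1 that rose, and none fell (list median -0.10). Aldh3a2, the fatty aldehyde dehydrogenase, had 6.98, 8.45 and 7.32 in Sfrp1_KO against 5.74, 5.50 and 5.83 in WT. Sfrp1_KO replicate 2 stood above the other knockout arrays, and the difference was 1.89 (SE 0.36, limma adjusted p = 0.0499). The call ended without any 1 array other than Sfrp1_KO replicate 2 (adjusted p 0.0591 to 0.132), and with arrays centred on the median (0.0827). Aldh4a1, of proline breakdown, was under background in Sfrp1_KO (4.60 ± 0.17) and at 5.10 ± 0.12 in WT, above it on 2 of 3 arrays (SD, n = 3; limma adjusted p = 0.0887, and 0.0476 after quantile normalization once more). The folate enzyme gene Aldh1l1 was under background in Sfrp1_KO (4.67 ± 0.04) and at 4.99 ± 0.11 in WT, again above it on 2 of 3 (adjusted p = 0.135).

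**Figure D3:**
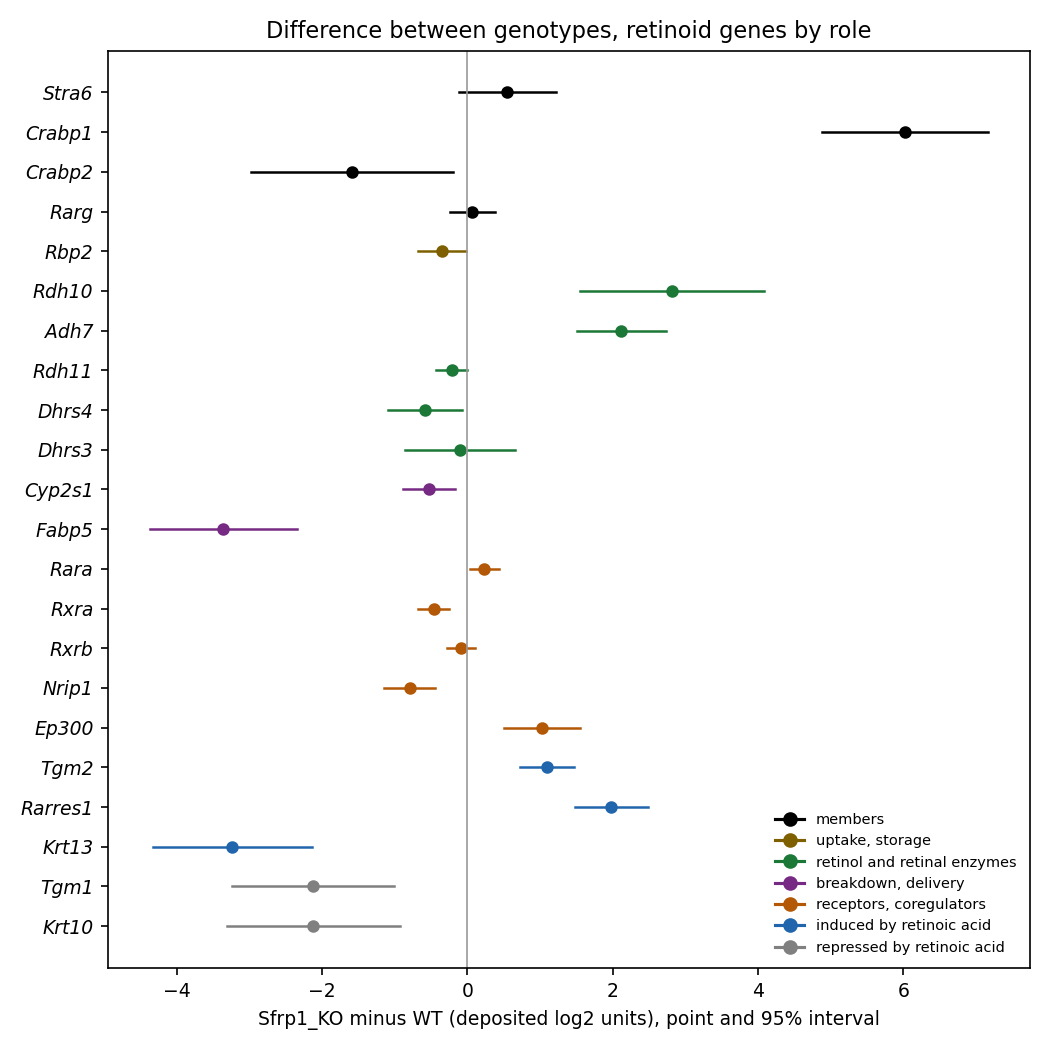
Difference between the genotypes (Sfrp1_KO minus WT, deposited log2 units, horizontal axis) with its 95% interval for members and genes of the retinoid lists, coloured by role. Intervals are not adjusted for the number of genes, and those of members are no test. Genes under background on all 6 arrays are left out, as is Cyp26b1, which allowed no bound, and intervals of Krt13 and Cyp2s1 are those of the unbounded difference. Crabp1 (6.02), Rdh10 (2.82) and Adh7 (2.12) lie far to the right, and Fabp5 (-3.36) and Krt13 (-3.23) far to the left.

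The genes whose promoter windows held a direct repeat with 5 bases between motifs formed a list that used no expression value, although it was drawn up after the arrays had been examined. Such windows belonged to 31 genes, of which 13 were measured under 1 symbol, Rarb and Cyp26a1 included. None of the 13 passed the limma test, as 3.28% of all genes did, with 1 at an unadjusted p under 0.05. On all arrays 8 were under background, as were 54.5% of all genes. So few genes cannot show a departure from these shares, and nothing is read from the counts. The count includes the member Rarb, which is given as a description only. Their median difference was -0.04, against -0.01 over all genes.

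The profile of Crabp1 over the 6 arrays was most like those of Aqp1, Mgp, Vim, S100a4 and Fn1, in order of Euclidean distance after each gene was centred on its mean. Aqp1, a water channel, was closest, at a distance of 0.79 log2 units, with 11.36, 11.16 and 10.00 in Sfrp1_KO against 4.45, 4.57 and 5.16 in WT. Like Crabp1 it was lowest among the knockout arrays on replicate 3. The matrix protein gene Mgp and the mesenchymal filament gene Vim lay at 1.26 each, S100a4, a calcium-binding protein gene, at 1.76 and the fibronectin gene Fn1 at 1.91. All 5 had differences between the genotypes of 5.09 to 6.12, near that of Crabp1. Their likeness to Crabp1 follows from their choice by profile on these same arrays, so nothing is read from it.

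Crabp1 is known as a marker of dermal papilla and of some dermal fibroblasts, and markers of these cells were set beside it. Of 10 dermal papilla markers 3 rose and none fell, where 1.83% of all genes rose and 1.45% fell. The list averaged 5.24 to 5.34 on Sfrp1_KO arrays against 4.66 to 4.95 on WT arrays. Its median difference was only 0.07, so the higher mean does not describe the list as a whole. The 3 were Sox2 (9.52 ± 0.33 in Sfrp1_KO, 7.48 ± 0.65 in WT; SD, n = 3), Vcan (7.56 ± 0.37 in Sfrp1_KO, 5.72 ± 0.17 in WT) and Prdm1, which rose by at least 0.95 and was under background in WT. The limma adjusted p-values were 0.0316, 0.00825 and 0.00523. Sox2 and Vcan were above background on all WT arrays too, and bulk samples do not show which cells expressed the 3 genes. Sox2 was not called without any 1 array except WT replicate 3 (adjusted p 0.0659 to 0.129). The papilla markers Corin, Alpl, Notum, Lef1 and Rspo3 were under background on all arrays.

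Of 11 fibroblast markers Pdgfrb (8.77 ± 0.78 in Sfrp1_KO, 5.05 ± 0.23 in WT; SD, n = 3; limma adjusted p = 0.00696) and Thy1 (6.44 ± 0.25 in Sfrp1_KO, 5.55 ± 0.06 in WT; adjusted p = 0.0237) rose and Fbln1 fell by at least 0.78 on the log2 scale (adjusted p = 0.00394). Thy1 was not called without any 1 array except Sfrp1_KO replicate 3 (adjusted p 0.0662 to 0.10), and not with arrays centred on the median (0.0535). Of all genes 1.83% rose and 1.45% fell. Postn was lower on every Sfrp1_KO array without a call (6.23 ± 0.22 in Sfrp1_KO, 9.57 ± 1.87 in WT; limma adjusted p = 0.117). In the fibroblast list 3 genes were higher and 2 lower at an unadjusted p under 0.05, and the list median was 0.18. The fibroblast list averaged 6.22 to 6.81 on Sfrp1_KO arrays and 5.70 to 7.01 on WT arrays, with WT replicate 3 the highest of all. None of 12 leukocyte and macrophage markers passed the limma test, with 8 higher and 0 lower at an unadjusted p under 0.05. How many of all genes reach that unadjusted threshold was not counted. Their mean was 4.69 to 5.33 in Sfrp1_KO and 4.42 to 4.50 in WT, and Ptprc and Cd3e were under background on all arrays. The macrophage genes Lyz2 (adjusted p = 0.0352), Laptm5 (0.0257), C1qb (0.00436) and C1qa (0.0264) passed without Sfrp1_KO replicate 3. The gate described above was lineage-negative and positive for Epcam and α6 integrin, and Epcam RNA was above background on 1 of 3 Sfrp1_KO arrays. How many cells of these types passed the gate was not measured. Their part in the Crabp1 difference was not tested.

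Markers of endothelium (8 measured), pericytes and smooth muscle (7), melanocytes and Schwann cells (7) and adipocytes (5) gave no limma call. At an unadjusted p under 0.05, 1 gene of each list differed, higher for the endothelial and the melanocyte list and lower for the other two. List means were 4.47 to 4.69 in Sfrp1_KO and 4.31 to 4.82 in WT for endothelium, and 4.64 to 4.81 in Sfrp1_KO and 4.77 to 5.12 in WT for pericytes and smooth muscle. They were 4.44 to 4.65 in Sfrp1_KO and 4.31 to 4.58 in WT for melanocytes and Schwann cells, and 4.35 to 4.57 in Sfrp1_KO and 4.47 to 4.92 in WT for adipocytes. The endothelial cadherin gene Cdh5 passed without Sfrp1_KO replicate 3 (2.34, adjusted p = 0.0337), while Tek, Emcn, Vwf, Tie1 and Cldn5 were under background on all arrays.

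**Figure D4:**
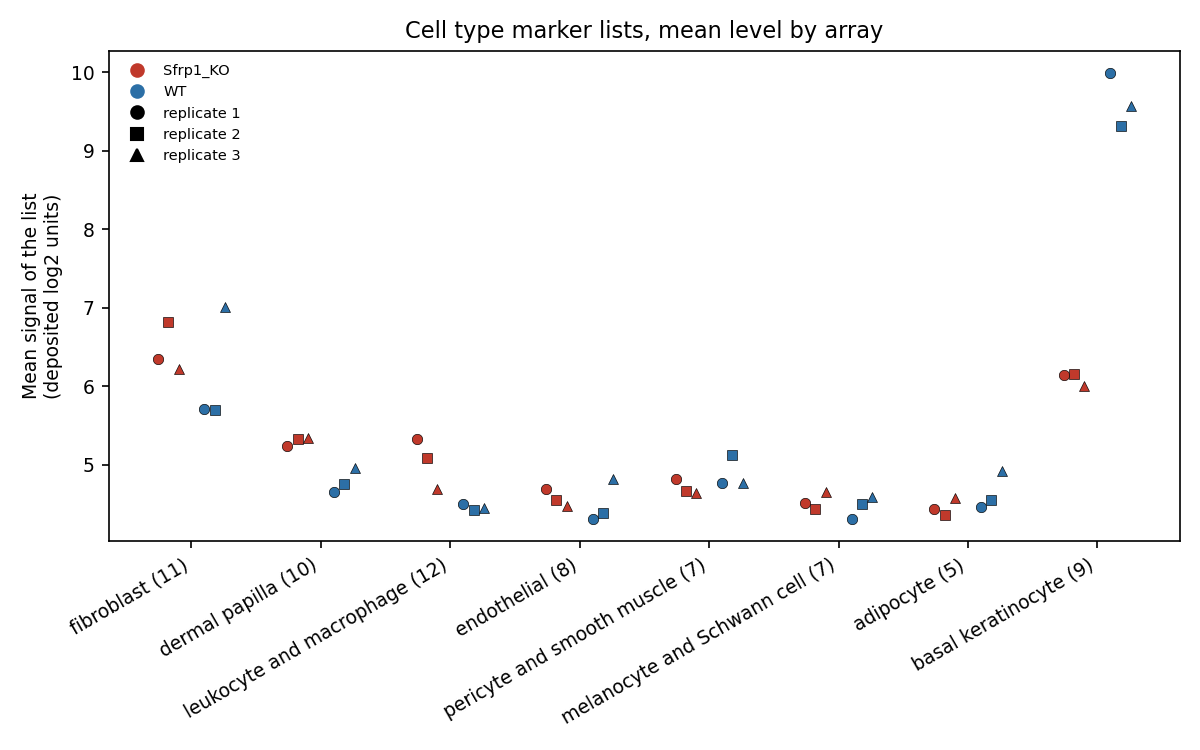
Mean signal of each cell type marker list on each array, in deposited log2 units (vertical axis), with the number of measured genes in brackets and Sfrp1_KO left of WT. Points are arrays, with a shape per replicate number. The basal keratinocyte list lies at 6.0 to 6.16 in Sfrp1_KO and 9.31 to 9.99 in WT. Means of the dermal papilla and leukocyte lists are higher on every Sfrp1_KO array than on any WT array. The median difference of the dermal papilla list is 0.07.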

How the data were processed

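Gene expression of 3 Sfrp1_KO and 3 WT samples was measured on 1 array each. The deposited values are log2 signals. Per the submitters' processing notes the authors used Affymetrix Expression Console and RMA; no version or build is stated there. Of 65956 transcript clusters, 30604 had 1 symbol and were named, with symbols updated through RefSeq gene identifiers (GRCm38.p6). Each gene was read from its brightest feature, which gave 30142 genes, dim ones included. No 2 arrays held identical values.

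The test between genotypes was limma's moderated one (version 3.58.1, R 4.3.3), two-sided, with lmFit and eBayes. A gene was called at a Benjamini-Hochberg adjusted p under 0.05, taken over all genes. Counts at an unadjusted p under 0.05 stand without the share of all genes, which was not counted. Differences are Sfrp1_KO minus WT, and SE is limma's moderated standard error. Where all arrays of 1 genotype were under background, "at least" is the other genotype's mean minus the mean background level of the dim arrays. Precision is limited by having 3 arrays per genotype.

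The members and lists were chosen with earlier results of these data known. Named were the members, fixed pathway genes, called list genes and up to 2 more per list with the smallest p, up to 4 per marker list and the 5 profiles nearest to Crabp1. Other marker genes, given as under background, as changing call, as higher (Dst) or as lower (Postn), were added after their values were seen. Alternatives were leaving out dim genes, a block on the replicate number, the mean of all features, quantile normalization, median centring, trend and robust eBayes, and each array left out. The same steps were tested on simulated arrays, 3 against 3 with 30142 genes and means as here. They recovered 25 of the 50 genes given a change of 1 log2 unit, 41 given 2, 47 given 3 and 48 given 4, and made 8 false calls. The changed genes were all brighter than the median gene, so recovery of dim genes was not tested. Noise was drawn independently for each gene and array, unlike deviations that arrays share.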

Additional observations from a re-analysis of the deposited data

How the results depend on the processing

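Over all genes 552 rose and 437 fell. With the replicate number as a block the counts were 297 and 238, and without any 1 array they ran from 191 to 487 higher and from 100 to 407 lower. Of the genes in the mixed retinoid lists 5 rose and 4 fell, and with the block 2 and 2. With arrays centred on the median 3 rose and 2 fell, and without any 1 array 2 to 3 and 0 to 5. Of the marker genes 5 rose and 7 fell, with the block 3 rose, and without any 1 array 3 to 10 rose and 5 to 8 fell. The samples share only a number: deviations from the genotype means correlated across genes by 0.18, -0.12 and 0.17 for numbers 1, 2 and 3, and genes are not independent replicates. The median difference of the members, 0.07, was 0.31 with dim genes left out, a filter that keeps 4 of the 9, and between -0.01 and 0.14 without any 1 array. Crabp1 lay between 5.65 and 6.53 in all alternatives. Of 816 comparisons of a named gene outside the members under an alternative, 735 kept their side of the threshold, 15 gained and 66 lost a call, and no call changed direction. Members were part of the limma fit but are given without p-values, and of their differences that of Rarg changed sign, at -0.01 without WT replicate 1. Under the block the calls of Rdh10 (adjusted p = 0.0964), Rxra (0.0921), Nrip1 (0.0791), Tgm2 (0.0505), Aldh3a2 (0.109), Sox2 (0.0751), Thy1 (0.0766), Epcam (0.0981) and Itga6 (0.0608) ended. The causes were not tested. Genes under background on all arrays, the ALDH1A members and Rarb among them, cannot be compared at this signal.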
